A study of Danio rerio with 12 samples.

Results

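Laminins, nidogens, heparan sulfate proteoglycans and integrins make up the basement membrane and the receptors by which a cell holds on to it. The genes described here are those whose symbol in the deposited tables begins as a laminin chain (*lama*, *lamb*, *lamc*), a nidogen (*nid*), an integrin α or β subunit (*itga*, *itgb*), perlecan (*hspg2*), agrin (*agrn*), talin (*tln*), vinculin (*vcl*), integrin-linked kinase (*ilk*) or a focal adhesion kinase (*ptk2*). The rule itself reads names only, although it was set with earlier results of these data known. It found 62 genes among the 22976 listed in either of 2 experiments, of which 55 were listed in both. All 62 were annotated as protein coding. One of them, *itgb1bp1*, matched by its name only, since it codes for a protein that binds the tail of integrin β1 and is not a subunit.

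Messenger RNA was measured in sorted cardiomyocytes of zebrafish embryos at 20 hours post fertilization (hpf), in 4 groups of 3 libraries. In the loss-of-function experiment, *hand2 FLD*-/- embryos, which are homozygous for a full-locus deletion of *hand2*, were compared with their *hand2 FLD*+/? siblings, which are WT or heterozygous and so include carriers of the deletion. In the gain-of-function experiment, *hand2* OE embryos, which carry *hand2* and EGFP under the *myl7* promoter and so overexpress it in cells that already express *myl7*, were compared with WT siblings. Hand2 is a transcription factor that the early heart needs, and the experiments ask which cardiomyocyte genes depend on its loss and its excess. The study describes the 3 samples of a group as biologically independent, without saying how many embryos each pooled.

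Laminins are heterotrimers of an α, a β and a γ chain that polymerize into the first sheet of a basement membrane. Nidogens and the proteoglycans perlecan and agrin tie that sheet to collagen IV. Integrins are heterodimers of an α and a β subunit, in which the α subunit largely sets the ligand, and talin, vinculin, integrin-linked kinase and focal adhesion kinase work on the cytoplasmic side. In the zebrafish heart at this stage, cardiomyocytes move to the midline as an epithelial sheet over such a matrix.

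The deposited values are rounded read counts, apparently normalized by 1 factor per library, and are called normalized read counts below. They summed to between 6728865 and 6965321 per library in the loss-of-function experiment and to between 5322231 and 5425823 in the gain-of-function experiment. The experiments were normalized separately, so tests were made within each. The *hand2* level was 2228, 2336 and 2380 in the siblings against 149, 427 and 45 in *hand2 FLD*-/-, and it was 1671, 1667 and 1611 in WT against 2159, 1939 and 2102 in *hand2* OE. Both contrasts therefore moved in the labelled direction, with no overlap, although the difference in *hand2* OE stayed under the 1.5-fold threshold (log2 fold change 0.32 ± 0.051 SE, limma adjusted p = 0.00837). Some *hand2* counts remained in every *hand2 FLD*-/- library, at unequal levels, and their source was not tested.

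The sort was checked against a list of markers for each cell type. Summed over 8 cardiomyocyte markers, the level was 15867 to 16575 in the siblings against 10997 to 11958 in *hand2 FLD*-/-, where *myh6*, atrial myosin heavy chain, was the 1 marker called lower. The other 7 were lower without passing the fold threshold. Among these, *tnni1b*, *tnnt2a*, *myl7*, *actc1a* and *cmlc1* passed the adjusted p (limma, at most 0.0256), and *tnnc1a* and *nkx2.5* did not. Markers of other cells moved as well. The sum over 10 endothelial and endocardial markers was 1195 to 1490 in the siblings against 5291 to 5618 in the mutants, and 8 of its 9 tested genes were called higher. Notochord and floor plate markers summed to 105 to 217 in the siblings against 947 to 1740 in the mutants, with *tbxta*, the notochord gene brachyury, the 1 of 5 tested genes called higher. Of the others, *shha* and *shhb* had lower means in the mutants, and *col2a1a* and *col8a1a* had higher means without passing the test. Pronephros markers summed to 57 to 100 and 349 to 640, and endoderm markers to 57 to 86 and 221 to 306. The called genes behind these sums were *pax2a* and *lhx1a* in the first and *foxa3* in the second, while *slc20a1a*, *foxa1* and *foxa2* had lower means in the mutants and were not called. Leukocyte markers summed to 3765 to 4076 and 3170 to 3494, and none of the 7 was called. Skeletal muscle markers summed to 3281 to 3623 in the siblings against 2575 to 2672 in the mutants, with *ckma* called lower and *myod1* called higher. The neural and epidermal sums overlapped between the groups. In the neural list *sox2* was called higher and *elavl3* lower, and in the epidermal list *cdh1* was called higher and *krtt1c19e* lower. No erythroid or neural crest marker was called. In the gain-of-function experiment the cardiomyocyte sum was 17879 to 18542 in WT against 16557 to 18862 in *hand2* OE, and none of its 8 markers was called. Leukocyte markers summed to 54 to 480 in WT and 327 to 961 in *hand2* OE. All 6 tested had positive log2 fold changes (median 1.44), and 1 was called higher, the chemokine receptor gene *cxcr3.2*, with 0, 0 and 0 in WT against 37, 47 and 18 in *hand2* OE (adjusted p = 0.0158). In that experiment *hand2* OE replicate 2 held the highest endothelial (1087), epidermal (3447), leukocyte (961) and notochord (835) sums of the 6 libraries. It also held the highest neural (2330), neural crest (325) and endoderm (71) sums, and the lowest cardiomyocyte sum (16557). Its erythroid, pronephros and skeletal muscle sums were not the highest. In the loss-of-function experiment *hand2 FLD*+/? replicate 2 held the highest epidermal sum (3333). In bulk samples, fewer cells of a type and less RNA per cell cannot be told apart, and the part of these markers in the results below was not tested.

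**Figure D1:**
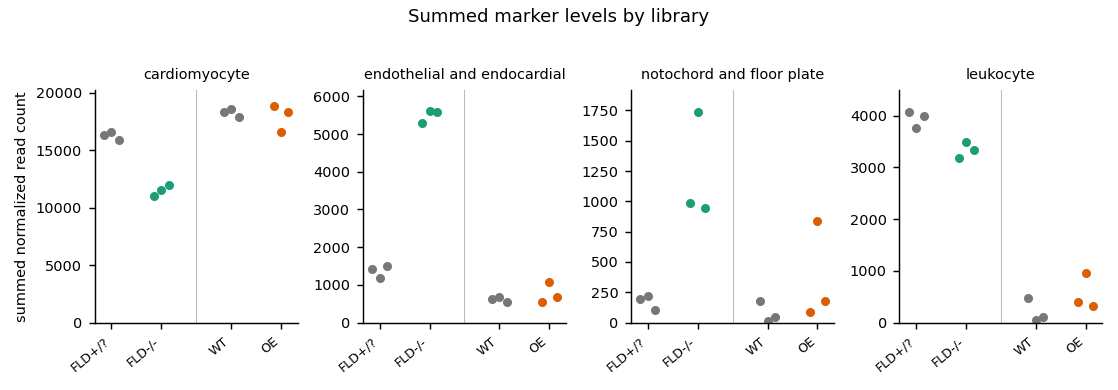
Summed normalized read count of 4 fixed marker lists in each of the 12 libraries, with 1 point per library and a vertical line between the experiments, which were normalized separately. The endothelial and endocardial sum was 5291 to 5618 in hand2 FLD-/- and at most 1490 in the siblings, and the cardiomyocyte sum was lower in hand2 FLD-/- (10997 to 11958) than in the siblings (15867 to 16575). Of the 8 cardiomyocyte markers, myh6 alone was called lower in hand2 FLD-/-.

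In *hand2 FLD*-/- cardiomyocytes, integrin α subunits made up most of the falls. Of the 60 members listed, 53 passed the filter on low values (a mean of at least 5 over the 6 libraries). Of these, 14 were downregulated, or 26.4%, beside 9.43% of all 17877 genes tested, and 2 were upregulated, or 3.77%, beside 9.09%. A call required an adjusted p of 0.05 or less over all genes (limma, Benjamini-Hochberg) and a change of at least 1.5-fold. The downregulated genes were *itga1*, *itga2.3*, *itga4*, *itga6b*, *itga8*, *itga9*, *itga11a*, *itga11b*, *itgav*, *itgb5*, *lamb1b*, *lamb2*, *hspg2* and *itgb1bp1*, and the upregulated genes were *lama1* and *itga6a*. The groups did not overlap for 28 of the 53, or 52.8%, beside 44.3% of all genes. By the adjusted p alone, 18 members were lower and 7 higher, beside 14.8% of all genes in each direction and 29.6% in either. The 7 members not tested were *itga2.2*, *itga3a*, *itga6l*, *itgam*, *itgb3a*, *lamb4* and *nid2b*, which had at most 15 normalized read counts in any library. The median log2 fold change was -0.14 over the members and 0.0032 over all genes.

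In *hand2* OE cardiomyocytes, 46 of 57 listed members passed the filter. Of these, 7 were upregulated, or 15.2%, beside 2.53% of all 16510 genes tested, and they were *itga4*, *itga9*, *itgb3b*, *itgb5*, *lamb1b*, *nid1b* and *ptk2ab*. One, *itga11a*, was downregulated, or 2.17%, beside 1.57%. The groups did not overlap for 16 of the 46, or 34.8%, beside 26.1% of all genes. In either direction 8 members were called, beside 4.1% of all genes. By the adjusted p alone, 4 members were lower and 8 higher, beside 3.18% and 3.45% of all genes in these directions and 6.63% in either. The 11 members not tested included *itga10*, *itga2.1*, *itga2b*, *itga6l*, *itgae.1*, *itgae.2*, *itgb2*, *itgb8*, *lamb4* and *ptk2ba*, which had at most 24 in any library. The median log2 fold change was 0.044 over the members and 0.0015 over all genes. Without *hand2* OE replicate 2, 3 members stayed upregulated (*itga4*, *itgb3b* and *nid1b*) and 2 were downregulated (*itga11a* and *vcla*). Over all genes, the 418 upregulated then became 187 and the 259 downregulated became 170.

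**Figure D2:**
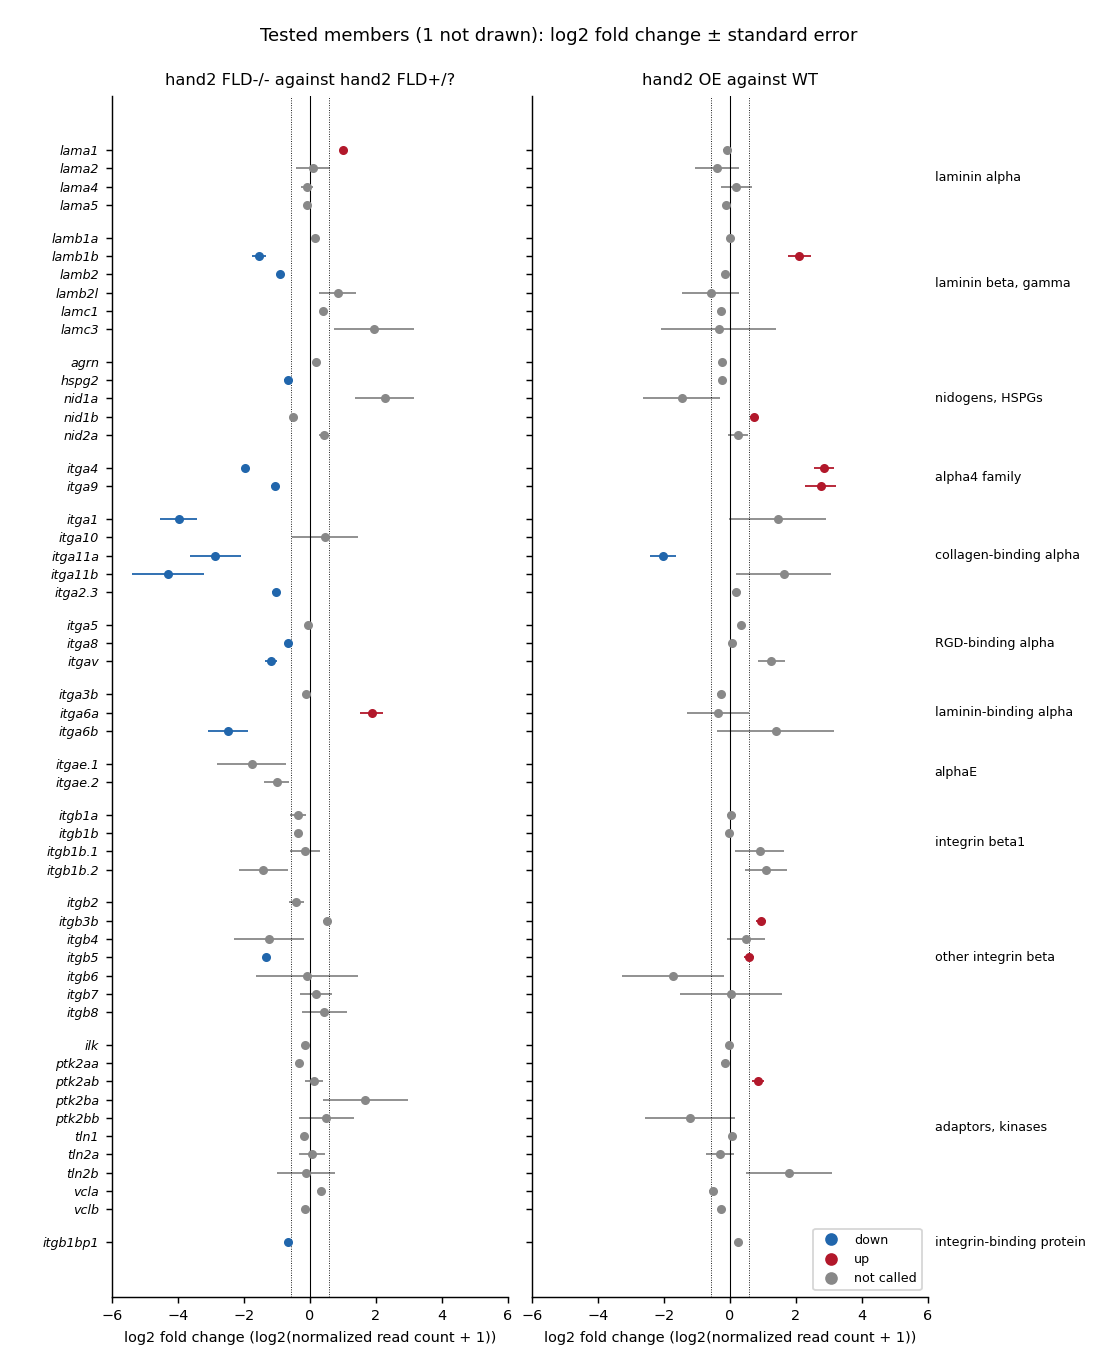
Log2 fold change of the tested members, with 1 gene not drawn, on the scale of log2(normalized read count + 1), with bars of 1 standard error, in hand2 FLD-/- against hand2 FLD+/? siblings and in hand2 OE against WT, grouped by role. Blue and red mark the 14 and 2 called genes of the first comparison and the 1 and 7 of the second, and dotted lines mark a 1.5-fold change.

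The α4 family holds the integrins α4 and α9, which pair mainly with β1 and bind fibronectin, VCAM-1 and other ligands of moving cells. *itga4* (chromosome 9, 44034790 to 44088067, danRer11) had normalized read counts of 1952, 1977 and 1908 in the siblings against 582, 434 and 483 in *hand2 FLD*-/-. It had 122, 52 and 67 in WT against 510, 724 and 446 in *hand2* OE. The groups were apart in both experiments, and the changes were -1.97 ± 0.097 (SE; adjusted p = 1.63e-06) and 2.85 ± 0.31 (adjusted p = 0.00164) on the log2 scale.

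*itga9* (chromosome 13, 47863695 to 48058813) had 619, 658 and 510 in the siblings against 288, 297 and 260 in *hand2 FLD*-/-, and 13, 51 and 24 in WT against 158, 205 and 170 in *hand2* OE. It fell by 1.07 ± 0.12 (adjusted p = 0.000156) and rose by 2.76 ± 0.47 (adjusted p = 0.0114) on the log2 scale. Both members of the family were thus called in both experiments, in opposite directions. Without *hand2* OE replicate 2 the log2 fold change of *itga9* was 2.65 and its call was lost (adjusted p = 0.0576), while *itga4* kept its call in every alternative tried. In the same *hand2* OE libraries all 6 tested leukocyte markers had positive log2 fold changes, and so had all 4 tested notochord and floor plate markers. All 5 tested erythroid markers had negative ones. Of these markers, only *cxcr3.2* was called, and their part in the rises of *itga4* and *itga9* was not tested.

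Of the laminin β chains, *lamb1b* (chromosome 4, 25704579 to 25751361) took the same course. It had 402, 490 and 373 in the siblings against 101, 156 and 187 in *hand2 FLD*-/-, and 22, 38 and 35 in WT against 103, 164 and 149 in *hand2* OE. The log2 fold change was -1.54 ± 0.22 (adjusted p = 0.000778) in the first and 2.11 ± 0.35 (adjusted p = 0.0107) in the second. Without *hand2* OE replicate 2 (log2 fold change 1.97, adjusted p = 0.0536) or replicate 3 (2.04, adjusted p = 0.0504) the second call was lost.

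The integrin β5 gene *itgb5* (chromosome 9, 22677503 to 22748015), whose product pairs with αv to bind vitronectin, had 881, 864 and 780 in the siblings against 314, 344 and 334 in *hand2 FLD*-/-. It had 226, 203 and 194 in WT against 350, 316 and 274 in *hand2* OE. The fall of 1.34 ± 0.083 on the log2 scale had an adjusted p of 5.88e-06. The rise of 0.59 ± 0.15 lay at the threshold (adjusted p = 0.0496) and was lost under 13 of 16 alternatives.

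Of 46 members tested in both experiments, these 4 were called lower in the mutants and higher in *hand2* OE, and 232 of all 15931 genes tested in both (1.46%) had this pattern. The cardiomyocyte marker sum was lower in all 3 mutant libraries than in any sibling library, and it overlapped between WT and *hand2* OE. Of its 8 markers, *myh6* alone was called lower in the mutants, with a mean of 3755 in the siblings against 726. The other 7 were lower and not called. One member, *itga11a*, was downregulated in both, as were 45 genes (0.282%). No member was upregulated in *hand2 FLD*-/- and downregulated in *hand2* OE, beside 66 genes (0.414%), and none was upregulated in both, beside 24 genes (0.151%).

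**Figure D3:**
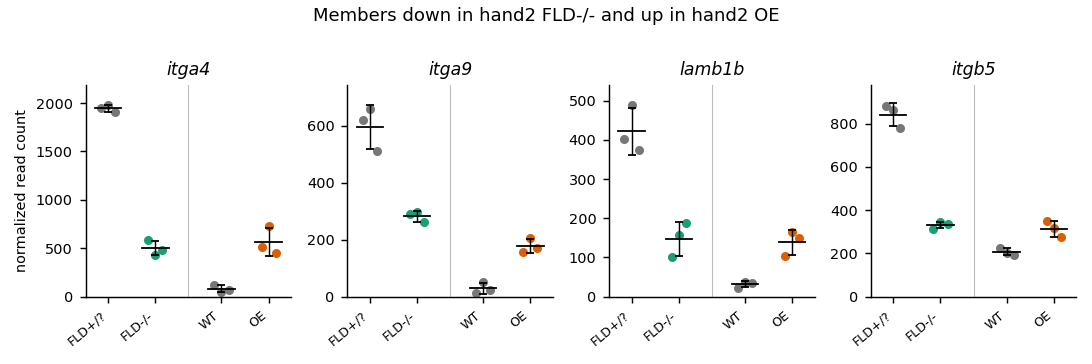
Normalized read count of itga4, itga9, lamb1b and itgb5 in each library, with 1 point per library, the group mean as a line and the SD of 3 libraries as a bar; the experiments are separated by a vertical line and were normalized separately. Each gene was lower in every hand2 FLD-/- library than in every sibling library, and higher in every hand2 OE library than in every WT library.

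Among the laminin α chains, the change was in *lama1* (chromosome 24, 41690545 to 41784173), the α1 chain that the zebrafish notochord and eye require. It had 1438, 1564 and 1214 in the siblings against 3195, 2683 and 2602 in *hand2 FLD*-/-, all higher, with a log2 fold change of 1.01 ± 0.10 (adjusted p = 9.41e-05). It had 288, 387 and 331 in WT against 288, 331 and 333 in *hand2* OE, where the groups overlapped. The most abundant α chain, *lama5*, a broad component of embryonic basement membranes, had 6953, 6960 and 6793 in the siblings against 6994, 6459 and 6245 in *hand2 FLD*-/-, with overlap, and its log2 fold change was -0.11 ± 0.055 in *hand2* OE (adjusted p = 0.312). *lama2* and *lama4* were not called in either experiment. Of the 5 tested notochord and floor plate markers, *tbxta* alone was called higher in these mutants, with 86, 23 and 30 in the siblings against 867, 718 and 834. Of the 9 tested endothelial and endocardial markers, 8 were called higher. The part of either list in the rise of *lama1* was not tested.

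Of the β and γ chains, *lamb2* (chromosome 23, 20180159 to 20258490), the β2 chain, had 2213, 2227 and 2193 in the siblings against 1176, 1138 and 1225 in *hand2 FLD*-/-. All 3 mutant libraries lay below all siblings, and the log2 fold change was -0.91 ± 0.044 (adjusted p = 1.48e-06). In *hand2* OE the groups overlapped (2351, 2547 and 2351 in WT against 2446, 2085 and 1981 in *hand2* OE, log2 fold change -0.16 ± 0.075, adjusted p = 0.273). The chains *lamb1a* and *lamc1*, which the notochord also needs, were the most abundant of the role. *lamb1a* had 4652, 4720 and 4911 in the siblings against 5213, 5198 and 5523 in the mutants, a log2 fold change of 0.16 ± 0.033 (adjusted p = 0.00612). *lamc1* had 2804, 2978 and 2785 against 3650, 3613 and 3916, a log2 fold change of 0.38 ± 0.042 (adjusted p = 0.000158). Both passed the adjusted p but not the 1.5-fold threshold. In *hand2* OE *lamc1* was lower by 0.26 ± 0.044 on the log2 scale (adjusted p = 0.0124) and *lamb1a* lay at -0.0027 ± 0.047. *lamb2l* and *lamc3* reached at most 71 normalized read counts in any library and were not called, and *lamb4* did not pass the filter in either experiment.

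Of 5 nidogen and proteoglycan genes tested in each experiment, 1 was called in each. Of all genes, 18.5% were called in either direction in *hand2 FLD*-/- and 4.1% in *hand2* OE. Perlecan, *hspg2*, a heparan sulfate proteoglycan of basement membranes, had 2663, 2382 and 1984 in the siblings against 1561, 1559 and 1263 in *hand2 FLD*-/-, a log2 fold change of -0.68 ± 0.11 (adjusted p = 0.00181). Without *hand2 FLD*+/? replicate 1 or *hand2 FLD*-/- replicate 3 it fell just under the fold threshold (-0.58 in each). *nid1b*, a nidogen, had 2949, 3029 and 3137 in the siblings against 2097, 2101 and 2175 in *hand2 FLD*-/-, which passed the adjusted p (1.33e-05) but not the fold threshold (-0.52 ± 0.037). In *hand2* OE it was called, with 942, 1103 and 815 in WT against 1500, 1543 and 1644 in *hand2* OE, a log2 fold change of 0.72 ± 0.10 (adjusted p = 0.0051), a call lost without the trend of variance on abundance (0.101). *nid2a*, another nidogen, had 768, 902 and 603 in the siblings against 1038, 1030 and 935 in the mutants (0.42 ± 0.13, adjusted p = 0.0365, under the fold threshold), and its groups overlapped in *hand2* OE. *agrn*, agrin, had 4061, 3848 and 3675 against 4582, 4436 and 4186 in *hand2 FLD*-/- (0.19 ± 0.045, adjusted p = 0.0115) and 4786, 4968 and 4624 against 4309, 3854 and 4070 in *hand2* OE (-0.23 ± 0.044, adjusted p = 0.0174), under the fold threshold in both. The nidogen *nid1a* had 2, 33 and 43 in the siblings against 74, 63 and 104 in *hand2 FLD*-/-. These did not overlap, but the test missed the threshold (2.27 ± 0.89 on the log2 scale, adjusted p = 0.0879); without *hand2 FLD*+/? replicate 3 it passed (adjusted p = 0.044).

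**Figure D4:**
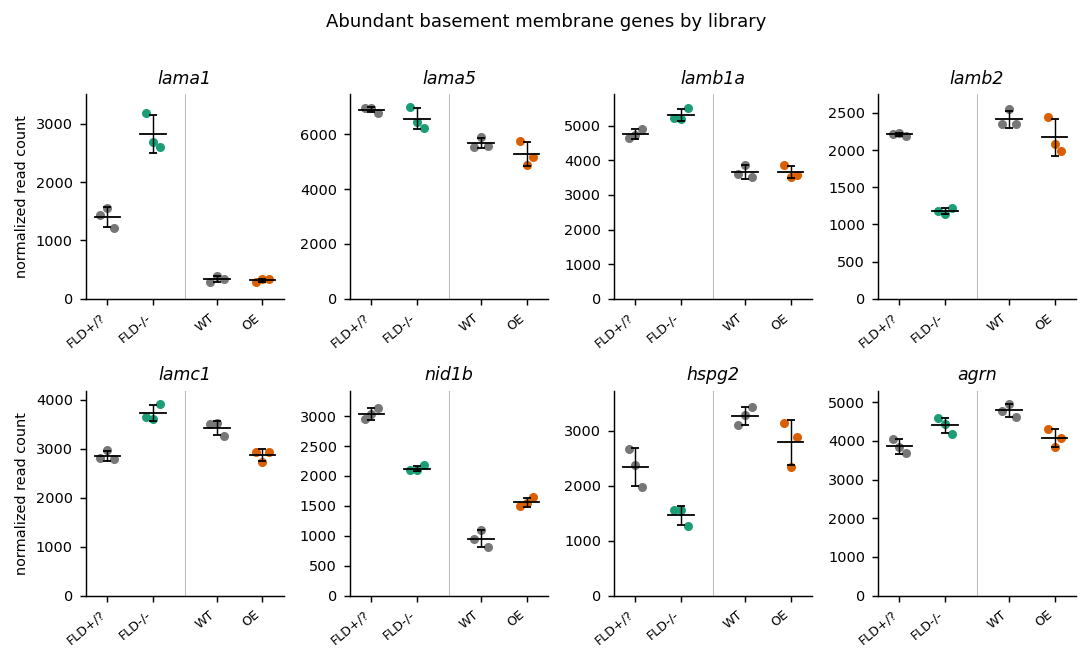
Normalized read count of 8 abundant basement membrane genes in each library, with 1 point per library, the group mean as a line and the SD of 3 libraries as a bar. lama1 was higher in every hand2 FLD-/- library and lamb2 and hspg2 were lower in every one, while lama5 overlapped between siblings and mutants.

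The collagen-binding α subunits α1, α2, α10 and α11 pair with β1. In *hand2 FLD*-/- 4 of 5 tested were downregulated, beside 9.43% of all genes, and *itga10*, the fifth, had at most 18 normalized read counts. *itga2.3* (chromosome 10, 8869468 to 8884205) had 520, 522 and 642 in the siblings against 314, 250 and 265 in the mutants, a log2 fold change of -1.02 ± 0.13 (adjusted p = 0.000318), and in *hand2* OE its groups overlapped. *itga1* (chromosome 10, 8730988 to 8841038) had 69, 88 and 82 in the siblings against 3, 10 and 2 in the mutants, a log2 fold change of -3.98 ± 0.56 (adjusted p = 0.000727). It ranged from -4.53 to -3.60 with a library left out and from -4.14 to -3.16 under the other alternatives. In WT and *hand2* OE *itga1* had 22 or fewer in every library.

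In the siblings, the 2 *itga11* genes had lower mean counts than *itga1*. *itga11a* (chromosome 7, 33176517 to 33248773) had 30, 82 and 45 in the siblings against 13, 10 and 1 in *hand2 FLD*-/- (-2.86 ± 0.78, adjusted p = 0.0218), and 66, 91 and 103 in WT against 16, 21 and 24 in *hand2* OE (-2.03 ± 0.40, adjusted p = 0.0199). It was lower in both *hand2 FLD*-/- and *hand2* OE, with no overlap in either. The first call was lost without *hand2 FLD*+/? replicate 2 (adjusted p = 0.0886) or 3 (0.0541), and the second without any of the 3 WT libraries in turn (adjusted p = 0.0501, 0.0811 and 0.0874). *itga11b* (chromosome 25, 1343161 to 1426876) had 38, 68 and 55 in the siblings against 0, 0 and 19 in *hand2 FLD*-/- (-4.29 ± 1.1, adjusted p = 0.0166), a call lost without *hand2 FLD*+/? replicate 2 (0.0595) or *hand2 FLD*-/- replicate 1 (0.0563). With a library left out its log2 fold change ranged from -5.73 to -3.57, and that of *itga11a* in the mutants from -3.39 to -1.98. Under the other alternatives, among them other pseudocounts, the ranges were -4.96 to -2.76 for *itga11b* and -3.02 to -2.18 for *itga11a*. In *hand2* OE *itga11b* had 0, 55 and 43 in WT against 23, 28 and 104, with overlap.

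The RGD-binding α subunits α5, α8 and αv recognize the RGD motif of fibronectin, nephronectin or vitronectin. The fibronectin receptor gene *itga5* was the most abundant and was the 1 of these 3 not called in *hand2 FLD*-/-, with 3043, 3096 and 3282 in the siblings against 3119, 2908 and 3116 in the mutants. Its groups overlapped (log2 fold change -0.04 ± 0.042). The other 2 were downregulated, beside 9.43% of all genes. *itga8* had 1387, 1391 and 1269 against 887, 822 and 850 (-0.66 ± 0.060, adjusted p = 5.32e-05), and *itgav* had 452, 364 and 426 against 138, 223 and 198 (-1.17 ± 0.18, adjusted p = 0.00126). In *hand2* OE *itgav* had 54, 53 and 42 in WT against 63, 165 and 164, which did not overlap but missed the threshold (1.26 ± 0.41, adjusted p = 0.111); it was called without *hand2* OE replicate 1 (adjusted p = 0.0228). *itga5* was higher in *hand2* OE by 0.33 ± 0.077 (adjusted p = 0.0392), under the fold threshold.

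The laminin-binding α subunits α3 and α6 gave opposite calls for the *itga6* paralogs. *itga6a* (chromosome 9, 3429662 to 3486488) had 26, 31 and 18 in the siblings against 95, 68 and 120 in *hand2 FLD*-/- (1.87 ± 0.35, adjusted p = 0.00327). *itga6b* (chromosome 1, 31019165 to 31064706) had 76, 80 and 87 in the siblings against 40, 10 and 6 in the mutants (-2.48 ± 0.60, adjusted p = 0.0131). Its log2 fold change ranged from -3.22 to -1.95 with a library left out, and the call was lost without the trend of variance on abundance (adjusted p = 0.0575). Neither pair of groups overlapped in *hand2 FLD*-/-, and both genes overlapped in *hand2* OE, where single libraries ran from 4 to 48 and from 0 to 71. The abundant *itga3b* had 1144, 1126 and 1132 against 1153, 983 and 986 in *hand2 FLD*-/-, with overlap.

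**Figure D5:**
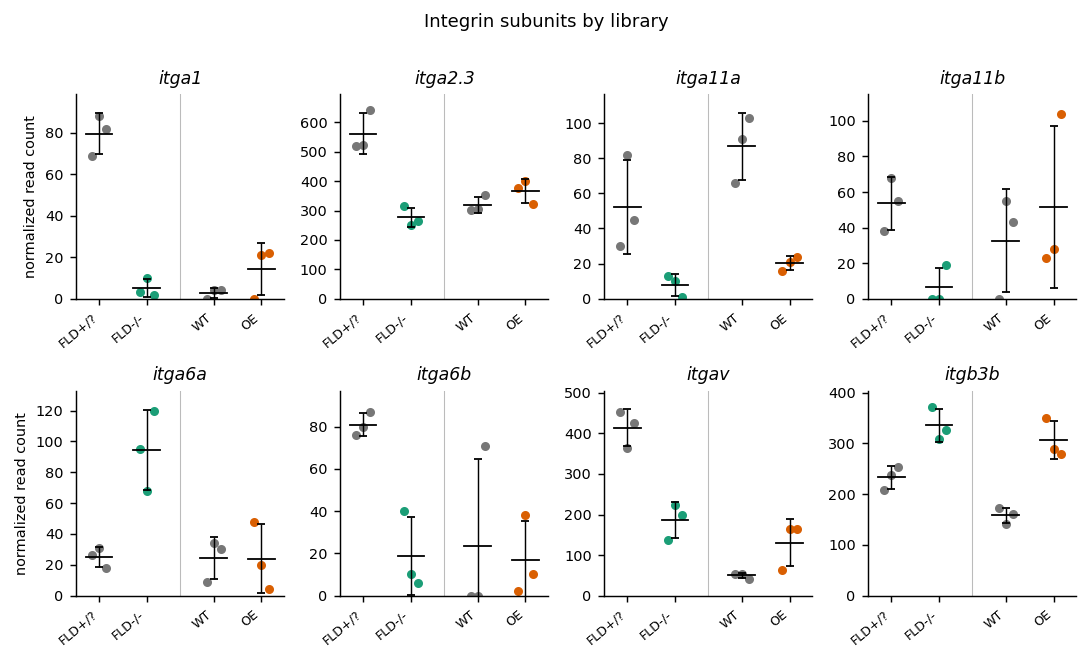
Normalized read count of 8 integrin subunit genes in each library, with 1 point per library, the group mean as a line and the SD of 3 libraries as a bar. itga1, itga2.3, itga11a, itga11b, itga6b and itgav were lower and itga6a was higher in every hand2 FLD-/- library than in every sibling library, and itga11a was also lower in every hand2 OE library than in every WT library.

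The β1 subunit, partner of most of these α chains, has 4 genes in the tables, and none was called in either experiment. Of all genes, 18.5% were called in either direction in *hand2 FLD*-/- and 4.1% in *hand2* OE. The most abundant, *itgb1b*, had 839, 927 and 798 in the siblings against 707, 636 and 668 in *hand2 FLD*-/- (-0.35 ± 0.077, adjusted p = 0.00845), which passed the adjusted p but not the fold threshold, and 1016, 924 and 943 against 1010, 887 and 959 in *hand2* OE. *itgb1a* overlapped in both experiments. *itgb1b.1* and *itgb1b.2*, which lie 3206 bp apart, had at most 61 normalized read counts. The β3 gene *itgb3b*, whose product pairs with αv, had 209, 238 and 253 in the siblings against 372, 308 and 327 in *hand2 FLD*-/- (0.52 ± 0.13, adjusted p = 0.0128, under the fold threshold) and 172, 142 and 160 in WT against 350, 289 and 280 in *hand2* OE (0.95 ± 0.16, adjusted p = 0.011). It was higher in both with no overlap in either, and the call in *hand2* OE was lost without the trend (adjusted p = 0.0621). *itgb4*, *itgb6* and *itgb7* were not called in either experiment. *itgb8* was not called in *hand2 FLD*-/- and was not tested in *hand2* OE.

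The α and β chains of leukocytes and lymphocytes were few. *itgb2*, the β2 subunit of white blood cells, had 403, 306 and 276 in the siblings against 237, 329 and 186 in *hand2 FLD*-/-, with overlap, and it had 24 in 1 WT library and 0 in the other 5 libraries of the gain-of-function experiment. *itgae.2* had 122, 114 and 59 against 45, 32 and 68 in *hand2 FLD*-/-. Its groups overlapped, and its adjusted p was 0.0765, but it was called lower without *hand2 FLD*+/? replicate 3 (0.0257) or *hand2 FLD*-/- replicate 3 (0.0471). Likewise *itgb2* was called lower without *hand2 FLD*-/- replicate 2 (adjusted p = 0.0495). *itgam* did not pass the filter, and neither did *itga2.2*, which belongs to the collagen-binding α subunits. They had at most 9 and 7 in any library.

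On the cytoplasmic side, none of 10 adaptor and kinase genes was called in *hand2 FLD*-/-, beside 18.5% of all genes called in either direction. The most abundant, *tln1* (talin, which activates integrins by binding the β tail), had 2693, 2471 and 2507 in the siblings against 2316, 2379 and 2111 in the mutants, a log2 fold change of -0.17 ± 0.053 (adjusted p = 0.0371). *ilk*, integrin-linked kinase, had 2130, 2198 and 2436 against 2064, 1989 and 2041 (-0.15 ± 0.052, adjusted p = 0.062) and 1848, 1889 and 1914 against 1946, 1747 and 1919 in *hand2* OE. The focal adhesion kinase gene *ptk2aa* was lower in *hand2 FLD*-/- by 0.32 ± 0.098 (adjusted p = 0.0382), under the fold threshold. Its paralog *ptk2ab* was the 1 call of 9 tested in *hand2* OE, beside 4.1% of all genes called in either direction. *ptk2ab* had 201, 253 and 311 in WT against 384, 453 and 544 (0.86 ± 0.19, adjusted p = 0.0299). That call ended, at adjusted p from 0.0811 to 0.106, when replicate 1 or 2 of WT was left out, and when replicate 2 or 3 of the overexpressing embryos was. The vinculin gene *vcla* had 816, 804 and 787 in WT against 591, 626 and 475 in *hand2* OE, which passed the adjusted p (0.0239) but not the fold threshold (-0.52 ± 0.11). *vclb*, *tln2a*, *tln2b* and *ptk2bb* were not called in either experiment. *ptk2ba* was not called in *hand2 FLD*-/- and was not tested in *hand2* OE. The non-subunit *itgb1bp1* had 682, 735 and 764 in the siblings against 458, 461 and 467 in *hand2 FLD*-/- (-0.65 ± 0.074, adjusted p = 0.000207).

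Genes of the same structures outside the name rule were read from 2 lists. Of 22 tested basement membrane genes in *hand2 FLD*-/-, 3 were downregulated (*col18a1a*, *col15a1b* and *frem1a*) and 5 upregulated (*col4a1*, *col4a2*, *frem3*, *smoc1* and *smoc2*), with a median log2 fold change of 0.11, beside 9.43% and 9.09% of all genes called in these directions. The collagen IV gene *col4a1* had 484, 524 and 472 in the siblings against 880, 922 and 752 in the mutants (0.78 ± 0.091, adjusted p = 0.000241). *frem1a*, an extracellular matrix protein gene, had 723, 785 and 716 against 23, 22 and 18 (-5.08 ± 0.18, adjusted p = 3.11e-07) and rose in *hand2* OE from 386, 374 and 419 to 634, 624 and 554. In *hand2* OE 2 of 23 were upregulated (*frem1a* and *hmcn2*) and 1 was downregulated (*frem3*), beside 2.53% and 1.57% of all genes.

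Of 29 tested integrin adhesion genes in *hand2 FLD*-/-, 6 were downregulated (*src*, *lims2*, *parvab*, *tes*, *tns2a* and *tns1a*) and 1 was upregulated (*fermt3b*), with a median log2 fold change of -0.17, beside 9.43% and 9.09% of all genes called in these directions. In *hand2* OE 3 were upregulated, beside 2.53% of all genes, and none downregulated. Those 3 were *src*, *parvab* and *tes*, which were also among the 6 downregulated in the mutants, a pattern that 1.46% of all genes had. Their control levels differed between the experiments, which were normalized separately. The means were 879, 374 and 1333 in the siblings and 100, 58 and 186 in WT. Such paired calls by themselves favour genes that are high in the siblings and low in WT, so no conclusion is drawn from these 3. *src*, a kinase at focal adhesions, had 790, 936 and 912 in the siblings against 202, 241 and 220 in *hand2 FLD*-/- (-1.99 ± 0.10, adjusted p = 2.39e-06), and 108, 111 and 80 in WT against 230, 263 and 353 in *hand2* OE (1.48 ± 0.23, adjusted p = 0.00708). *parvab*, a parvin that joins integrin-linked kinase, had 349, 347 and 426 against 59, 91 and 66, and 62, 56 and 55 in WT against 170, 184 and 157. *tes*, testin, had 1314, 1256 and 1430 against 831, 865 and 856, and 192, 160 and 207 in WT against 481, 613 and 550.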

How the data were processed

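Sorted cardiomyocytes at 20 hpf gave 12 libraries in 2 experiments, with 3 libraries per group. Libraries were made from low-input RNA with the SMART-Seq HT kit. According to the submitters' processing notes and the methods, the authors used Trimmomatic 0.39 for trimming, STAR 2.7.10a for alignment to danRer11 and featureCounts 2.0.2 for counting in exons, leaving out reads that fit several genes or places. The strand setting is not given in the sources used here, so overlapping genes (*itga5*, *itga6l*, *itga10*, *lama2*, *lama5* and *ilk* among members) and near-identical paralogs are less certain. The deposited values are scores, namely normalized and rounded read counts, so that no count model was used. They appear to have been normalized with 1 factor per library, and that factor is not known exactly. The depth in reads was not used, and precision was read from the spread between libraries.

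Values were fitted as log2(value + 1) with limma 3.58.1 (lmFit, eBayes with trend) in R 4.3.3, within each experiment, keeping genes whose mean over its 6 libraries was 5 or more. Adjusted p-values are Benjamini-Hochberg over all tested genes, and a call needed 0.05 and 1.5-fold. On this scale the fold change of a low gene depends on the pseudocount and can differ from the ratio of group means. An exact permutation test of 3 against 3 cannot go below 0.1, so groups that do not overlap were only counted. The steps were tested on simulated data in which the changed genes were abundant and their changes lay well above 1.5-fold. That test did not cover changed genes with low counts or changes near the threshold. Members are all genes of the name rule; those named with values are every called member, the most abundant of each role and those past 1.5-fold without overlap but not called. Other members given with values, such as *lamc1*, *nid2a*, *itgb2*, *ptk2aa* and *vcla*, were chosen after their values were seen. The members and lists were chosen with earlier results of these data known. Alternatives were other pseudocounts, filters, scalings and fold thresholds, limma without the trend, a replicate block and each library left out. The values of 1 member are not reported here, though it stays in the counts.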

Additional observations from a re-analysis of the deposited data

How the results depend on the processing

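No call reversed direction under any alternative. In *hand2 FLD*-/-, the 14 downregulated members became between 10 (2-fold threshold) and 18 (no fold threshold), 11 without the trend and 12 to 15 with a library left out. Over all genes, the 1685 downregulated became 1190, 2642, 1546 and 1378 to 1663 at the same settings. The 2 upregulated members became 7 without the fold threshold and 2 to 3 with a library left out. Over all genes, the 1625 upregulated became 2650 and 1346 to 1606 at these settings. Of the 16 calls, 9 held in every alternative. In *hand2* OE, the 7 upregulated members became 1 without the trend, 3 at a 2-fold threshold and 3 to 7 with a library left out. Over all genes, the 418 upregulated became 133, 268 and 187 to 323 at the same settings. The 1 downregulated member became 4 without the fold threshold and 0 to 2 with a library left out. Over all genes, the 259 downregulated became 525 and 124 to 256 at these settings, and 70 without the trend. Of the 8 calls, *itga4* alone held in every alternative, and 6 were lost without the trend, with adjusted p from 0.0525 (*lamb1b*) to 0.155 (*ptk2ab*). The cause was not tested. Rescaling to equal totals moved the median log2 fold change of all genes to 0.047 in *hand2 FLD*-/-, the largest shift of any scaling.

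Whether the replicate numbers pair the samples was not settled, since the deviations of libraries were only weakly correlated across genes. In *hand2 FLD*-/- against siblings, r was 0.0155 to 0.034 for same-numbered libraries and -0.0262 to 0.00289 for the others. In *hand2* OE against WT, it was -0.0976 to -0.0205 for same-numbered libraries and -0.0409 to 0.0749 for the others. With the replicate number as a block, the counts were 14 downregulated and 2 upregulated in *hand2 FLD*-/- and 0 downregulated and 6 upregulated in *hand2* OE, where *itga11a* (adjusted p = 0.054) and *itgb5* (adjusted p = 0.0717) were no longer called. Over all genes, the block gave 1613 downregulated and 1573 upregulated in *hand2 FLD*-/-, and 180 and 286 in *hand2* OE.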

Other observations

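The 2 control groups, *hand2 FLD*+/? siblings and WT, were both sorted at 20 hpf but sat at different levels of several members. For the siblings the paper names *myl7*:EGFP as the sorted reporter. For WT it names *myl7*:EGFP in one figure legend and *myl7*:mCherry in another, so the reporters may differ. The 2 groups were normalized separately, so the values are given as CPM, each value divided by its library's total, with no test. Of 15128 genes with a mean of at least 1 CPM in both groups, 1144 (7.56%) had every sibling library over 2 times every WT library and 418 the reverse. Of 45 members among them, 9 had every sibling library over 2 times every WT library, and none the reverse. *itgb2*, the integrin β2 of white blood cells, had means of 47.3 CPM in the siblings and 1.5 in WT, where its normalized read counts were 24, 0 and 0. *itga4* had 280.0 and 15, *itga9* 85.7 and 5.44, *lamb1b* 60.7 and 5.89, *itgav* 59.6 and 9.25, *lama1* 202.2 and 62.4, *itgb5* 121.1 and 38.7, *lama4* 53.9 and 12.1, and *nid1b* 437.2 and 177.5. All 4 members with opposite calls in the 2 experiments were among these 9. Such calls by themselves favour genes that are high in the siblings and low in WT. The share among all 232 genes with that pattern was not counted, so no conclusion is drawn from the 4. By contrast *lamb1a* had 685.1 and 682.2, *lama5* 993.1 and 1058, and *ilk* 324.4 and 351.0.

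The leukocyte marker sum stood at 3765 to 4076 normalized read counts in the siblings and 54 to 480 in WT, on the separate scales of the 2 tables. The experiment, the control genotype and any difference in reporter cannot be told apart here.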
